A study of Mus musculus with 6 samples.

Results

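The collagen chain genes encode the α chains that wind into the triple helices of collagen, the main structural protein of the extracellular matrix. Members were all genes of the count table whose symbol is Col, a type number, the letter a and a chain number, apart from Col17a1. The rule gave 43 of 56941 genes, and all 43 were among the 32149 genes with enough counts to test. They fall into 9 classes: 11 fibrillar genes, 6 basement membrane genes of type IV, 6 beaded filament genes of type VI, 9 FACIT genes (fibril-associated collagens with interrupted triple helices), 3 transmembrane genes, 3 network genes, 2 multiplexin genes, 1 anchoring fibril gene and 2 others.

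RNA was measured in hair follicle stem cells (HFSCs) sorted from dorsal skin of female mice at PD68 as CD34+/α6-integrin+ cells, with 3 biological replicates of each genotype. All mice carried 2 floxed Dab2 alleles (Dab2 fl/fl, strain B6;129S4-Dab2tm1Cpr/J) and all received tamoxifen at 75 mg/kg on 5 consecutive days. Mice labelled WT lacked the Cre driver (K14CreER-/-) and mice labelled Dab2-cKO carried it (K14CreER+/-). The K14 promoter drives this Cre in basal keratinocytes, and is not known to drive it in fibroblasts, vessels or muscle.

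Several collagens meet at the hair follicle. Type IV collagen forms the sheet of the basement membrane on which the stem cells sit, type VII forms the anchoring fibrils that tie this sheet to the dermis, and types XV and XVIII lie in or next to it. Below it, fibroblasts make the fibrils of types I, III and V, with FACIT collagens on their surface and type VI microfilaments between them. Each chain is hydroxylated and glycosylated in the endoplasmic reticulum, folded with chaperones, secreted, trimmed at its ends and crosslinked.

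The libraries held 7040032 to 11696457 counts and were compared as normalized counts, in which each count is set relative to the TMM-adjusted size of its library and brought back to the average size. The targeted gene went against the labels. Dab2 had normalized counts of 338, 332 and 309 in the WT-labelled libraries and 1434, 1300.2 and 1389.5 in the Dab2-cKO-labelled libraries (log2 fold change 2.08, SE 0.08, adjusted p = 3.04e-34). Counts over the whole gene also cover exons that the floxed allele may leave in place, and no cause of this difference was tested. Every direction below is therefore that of the libraries labelled Dab2-cKO over those labelled WT. Keratinocyte genes were present in every library, and among 12 bulge HFSC genes 8 were higher and 3 lower, with Krt14 at 6378 ± 419.5 and 11472 ± 255 (mean ± SD, n = 3 each). The 3 lower genes, named after their values were seen, were Sox9 (log2 fold change -1.45), Lhx2 (-1.43) and Lgr5 (-1.32). Genes of other cells had counts too. Skeletal muscle genes took 0.725% ± 0.0242 of all counts in the WT-labelled and 2.38% ± 0.0541 in the Dab2-cKO-labelled libraries, and all 12 hair germ and matrix genes were lower in the Dab2-cKO-labelled libraries. Beside these counts, 16.8% of all genes tested were called higher and 11.5% lower. Among genes averaging 100 or more normalized counts the shares were 37.6% and 22.8%. None of the listed marker genes of any cell type was at 0 in a library, but only 134 of all 32149 genes tested were. Counts above 0 therefore say little about which cells were present.

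Promoter sequences are shown for 4 members on which the results turn. Windows of 250 bases before to 50 bases after the start are from RefSeq on GRCm38.p6, an older build than the GRCm39 of the counts. For 34 of the 43 members a window matched, 37 windows in all, and no window matched Col1a1, Col2a1, Col4a3, Col5a2, Col9a3, Col12a1, Col14a1, Col22a1 or Col26a1. The windows of Col1a2 (chr6:4505368-4505667, plus strand) and Col3a1 (chr1:45311288-45311587, plus strand) belong to the most abundant chains with a window, and that of Col11a1 (chr3:114030290-114030589, plus strand) to the member with the largest fall. Windows were searched for 3 motifs, and capitals mark their matches on either strand. The first is CCAAT, bound by NF-Y. The second is GGGCGG, the GC box bound by Sp factors. The third is TATAAA, the letters of the TATA box. Matches were counted at any distance from the start, so a TATAAA match need not be a placed TATA box. No match overlapped another of a different motif in the 3 windows that follow.
Col1a2: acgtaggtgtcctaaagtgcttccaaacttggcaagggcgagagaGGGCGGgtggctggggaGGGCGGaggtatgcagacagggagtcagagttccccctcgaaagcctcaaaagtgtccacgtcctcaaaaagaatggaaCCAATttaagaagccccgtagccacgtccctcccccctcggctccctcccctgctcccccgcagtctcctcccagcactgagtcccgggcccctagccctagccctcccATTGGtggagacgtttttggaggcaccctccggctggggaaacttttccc
Col3a1: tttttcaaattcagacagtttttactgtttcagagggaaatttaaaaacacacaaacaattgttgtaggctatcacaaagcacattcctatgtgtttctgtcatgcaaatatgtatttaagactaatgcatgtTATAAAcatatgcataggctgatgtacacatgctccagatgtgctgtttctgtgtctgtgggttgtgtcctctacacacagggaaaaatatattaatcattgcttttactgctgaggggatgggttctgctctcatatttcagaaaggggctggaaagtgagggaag
Col11a1: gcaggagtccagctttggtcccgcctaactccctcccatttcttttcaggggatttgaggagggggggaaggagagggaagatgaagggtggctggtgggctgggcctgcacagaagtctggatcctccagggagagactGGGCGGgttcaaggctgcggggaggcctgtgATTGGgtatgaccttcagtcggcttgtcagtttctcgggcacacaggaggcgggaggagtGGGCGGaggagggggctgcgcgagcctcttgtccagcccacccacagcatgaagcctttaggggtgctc
The Col1a2 window held CCAAT and GGGCGG on 2 occasions each and no TATAAA. That of Col3a1 held TATAAA once and neither of the other motifs, and its GC content was 37.7% against 61.0% for Col1a2. The Col11a1 window held GGGCGG on 2 occasions and CCAAT once, with a GC content of 62.3%.

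Col4a1 and Col4a2 lie head to head. Their RefSeq starts were 21 bases apart on opposite strands, so that their windows shared 78 bases (chr8:11312777-11312854), shown in capitals in the Col4a2 window (chr8:11312555-11312854, plus strand).
Col4a2: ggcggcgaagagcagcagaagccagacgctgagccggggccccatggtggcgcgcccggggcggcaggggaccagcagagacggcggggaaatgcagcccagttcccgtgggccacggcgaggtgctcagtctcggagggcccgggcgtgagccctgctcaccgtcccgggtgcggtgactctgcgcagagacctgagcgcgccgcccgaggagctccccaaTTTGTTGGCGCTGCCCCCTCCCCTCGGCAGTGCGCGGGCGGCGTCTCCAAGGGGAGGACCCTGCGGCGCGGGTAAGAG
Across the 37 collagen windows GGGCGG was found in 23 (62.2%), against 35.7% of all 32851 windows. CCAAT was found in 12 (32.4%, all windows 37.4%) and TATAAA in 4 (10.8%, all windows 13.6%). By call, GGGCGG was in 13 of 20 windows of genes that rose, 4 of 5 windows of genes that fell and 6 of 12 windows of genes that were not called. These matches are a description of the letters in the windows.

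Most collagen genes with a called difference were higher in the Dab2-cKO-labelled libraries. By edgeR's quasi-likelihood test with Benjamini-Hochberg adjustment over all genes tested, 23 of the 43 members rose (53.5%) and 6 fell, and 14 did not pass an adjusted p of 0.05. Across all genes tested, 28.2% were called, 16.8% higher and 11.5% lower. Among the 10846 genes whose normalized counts averaged 100 or more, the shares were 37.6% and 22.8%, and 37 members were in that range, of which 23 rose and 6 fell. The median log2 fold change of the members was 0.43, against -0.02 for all genes tested, with a range from -2.18 to 1.98. In the test against a 1.5-fold change, 16 members were higher and 1 was lower, against 6.91% and 3.53% of all genes tested. Scaling by library size alone, under which the median of all genes tested moved to -0.45, called 17 members higher and 15 lower, so that the share of the calls that were higher went from 79.3% to 53.1%.

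Libraries of the 2 groups did not overlap for 31 members, 23 with all Dab2-cKO-labelled libraries above and 8 with all of them below the WT-labelled libraries. For all genes tested the shares were 20.6% and 17.7%. The 23 were the members that rose, and the 8 were the 6 that fell together with Col6a4 and Col8a2.

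**Figure D1:**
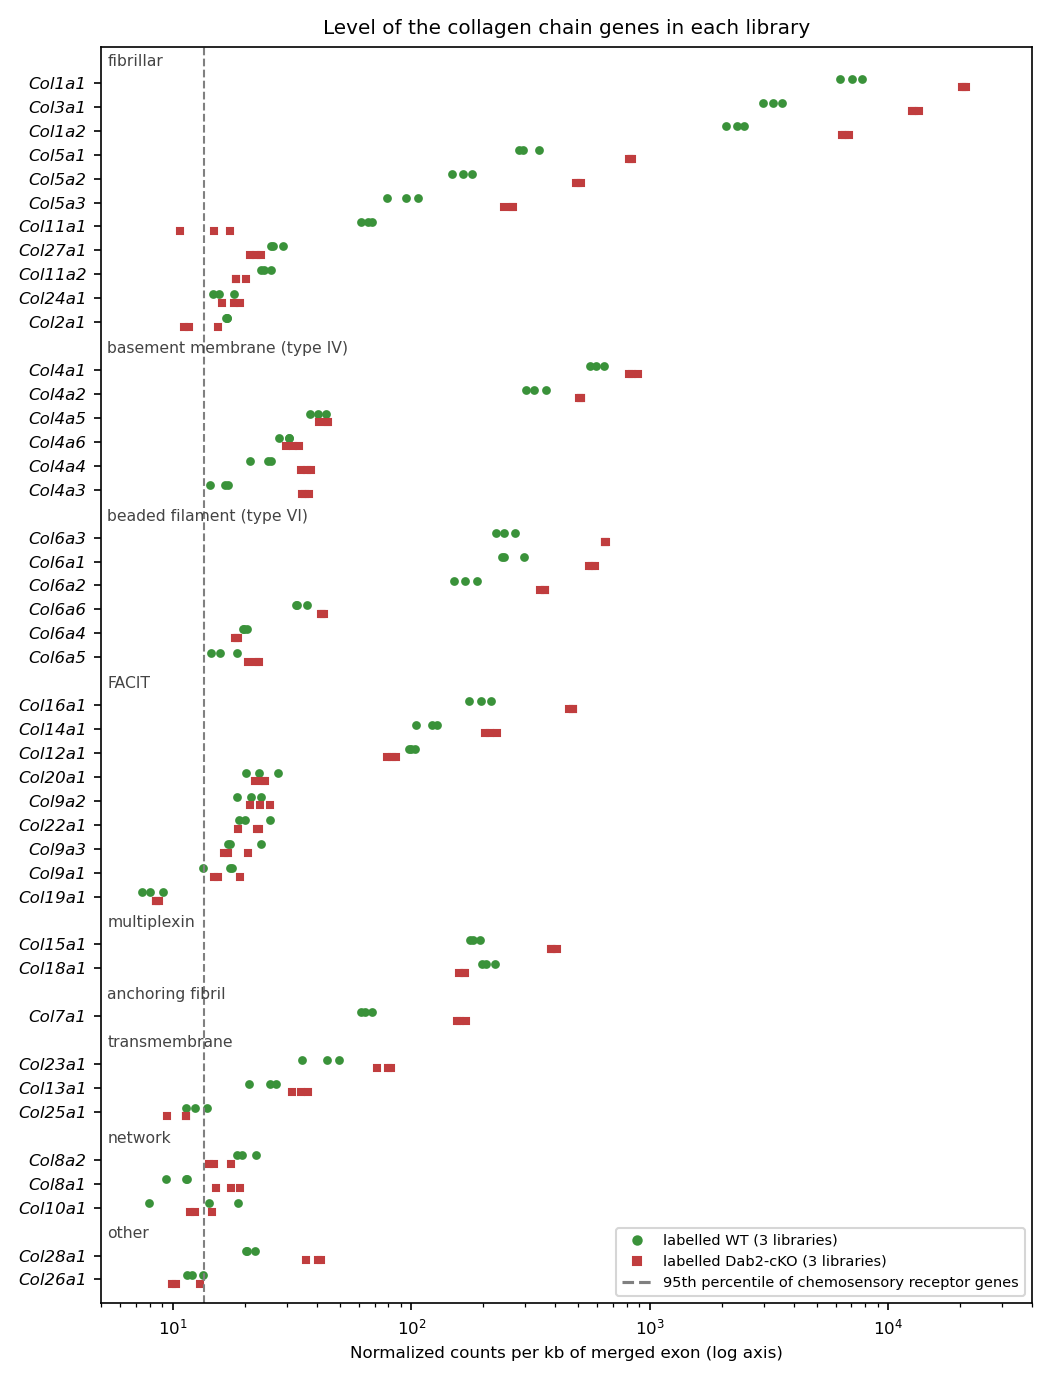
Normalized counts per kb of merged exon (log axis) of the 43 collagen chain genes by class, with 1 point per library (circles, labelled WT; squares, labelled Dab2-cKO; 3 libraries each). The dashed line is the 95th percentile of 1970 chemosensory receptor genes over all libraries (13.4 per kb), and Col1a1, Col3a1 and Col1a2 lie far to the right of all other members.

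Types I and III made up most of the collagen counts and rose most in absolute level. Col1a1 (chromosome 11, 94827050-94843868, GRCm39), the α1 chain of type I collagen, had normalized counts of 41337, 50849 and 46073 in the WT-labelled and 133121, 138433 and 136249 in the Dab2-cKO-labelled libraries (log2 fold change 1.56, SE 0.07, adjusted p = 3.10e-31). Col1a2 (chromosome 6, 4504814-4541555), its α2 chain, had 26238, 31449.5 and 29265 against 81047, 86290.2 and 82845 (log2 fold change 1.52, SE 0.07, adjusted p = 1.48e-30). Col3a1 (chromosome 1, 45350698-45395840), the single chain of type III collagen, had 30542, 36831 and 33680.3 against 128804, 137932 and 132139 (log2 fold change 1.98, SE 0.07, adjusted p = 6.13e-37). In each of these 3 genes the lowest Dab2-cKO-labelled library was more than 2 times the highest WT-labelled library, and Col3a1 had the largest rise of all members, 3.95-fold. All 14 dermal fibroblast markers were higher in the same libraries (median log2 fold change 1.59), and their part in these differences was not tested. Together Col1a1, Col1a2 and Col3a1 took 1.33% ± 0.0716 of all counts in the WT-labelled and 3.22% ± 0.144 in the Dab2-cKO-labelled libraries (mean ± SD, n = 3). Of the collagen counts alone these 3 genes took 78.1% ± 0.526 and 86.2% ± 0.200. The other 40 members took 0.373% ± 0.00965 and 0.516% ± 0.0150 of all counts. Per kb of merged exon the level of Col1a1 was 7018 and 20699.6 normalized counts, that of Col3a1 3278 and 12937, and that of Col1a2 2291 and 6592. An annotated gene without a name (Gm66266) on the opposite strand covers 10.3% of the merged exons of Col1a2, and the strand setting of the counting is not given in the sources used here.

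Type V chains, which join type I in mixed fibrils and set their diameter, moved the same way. Col5a1 had normalized counts of 2463, 2976 and 2554 against 7159.6, 7309 and 7284 in the WT-labelled and the Dab2-cKO-labelled libraries (log2 fold change 1.44, SE 0.07, adjusted p = 3.58e-28). For Col5a2 they were 1661, 1997 and 1834 against 5485, 5589.8 and 5729 (log2 fold change 1.61, SE 0.07, adjusted p = 1.24e-30). For Col5a3 they were 544, 732 and 654 against 1684, 1815 and 1841 (log2 fold change 1.46, SE 0.08, adjusted p = 2.80e-26). All 3 genes were at least 2 times as high in every Dab2-cKO-labelled library as in any WT-labelled library.

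The other fibrillar genes did not follow them. Col11a1 (chromosome 3, 113824134-114014367), a chain of type XI collagen best known from cartilage fibrils, had normalized counts of 788, 874 and 842 in the WT-labelled and 221, 191 and 137 in the Dab2-cKO-labelled libraries (log2 fold change -2.18, SE 0.10, adjusted p = 2.16e-29). It was the only member lower by more than 1.5-fold in the test against that fold, and all 3 WT-labelled libraries stood far above the others. Its Dab2-cKO-labelled level, 14.3 normalized counts per kb of merged exon, was close to the level of 13.1 per kb below which 95% of the chemosensory receptor genes lay in those libraries, a set of 1970 genes that skin is not known for and that serves as a scale for low levels. Per kb of canonical transcript the values were 23.7 and 15.3. The remaining falls were small. Col27a1, a minor fibrillar chain of cartilage, had 376, 343 and 336 against 291, 273 and 305 (log2 fold change -0.28, SE 0.10, adjusted p = 0.0338). Col11a2, another type XI chain, had 192, 179.7 and 174 against 149.7, 137 and 137 (log2 fold change -0.36, SE 0.14, adjusted p = 0.0372). Col2a1, the cartilage chain of type II, had 158, 158 and 156 against 104, 144 and 109 (log2 fold change -0.41, SE 0.15, adjusted p = 0.0301). The groups did not overlap in these 3 genes, but their calls were lost by DESeq2 (adjusted p = 0.0643, 0.0751 and 0.0760). They were also lost without single libraries, Col27a1 without WT replicate 1 or 3 or Dab2-cKO replicate 2 (adjusted p from 0.0520 to 0.134), Col11a2 when any 1 library other than Dab2-cKO replicate 1 was left out (0.0664 to 0.124) and Col2a1 when any 1 library other than Dab2-cKO replicate 2 was left out (0.0640 to 0.152). Col24a1 was not called (log2 fold change 0.14, SE 0.15, adjusted p = 0.571). In all, 6 of the 11 fibrillar genes rose, 4 fell and 1 was not called, with a median log2 fold change of 1.44.

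**Figure D2:**
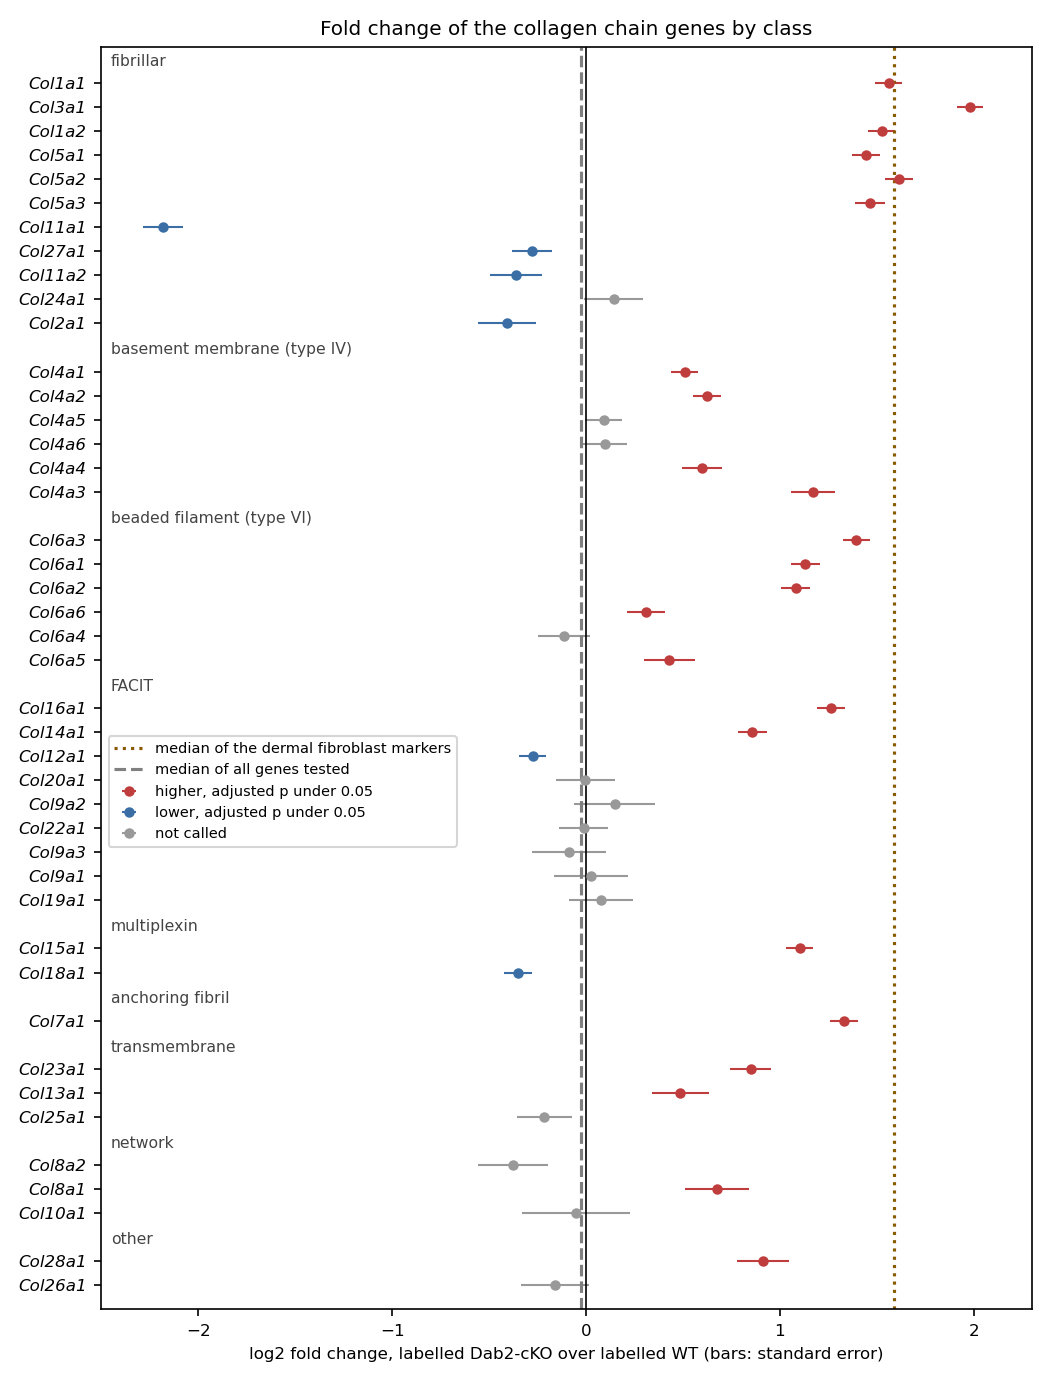
log2 fold change of each collagen chain gene, labelled Dab2-cKO over labelled WT, with bars of 1 SE, by class and in the order of level within a class. Types I, III and V lie between 1.44 and 1.98, near the median of the 14 dermal fibroblast markers (dotted line, 1.59), while Col11a1 lies at -2.18 and the type IV genes between 0.09 and 1.17.

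The basement membrane chains of type IV had smaller fold changes than types I and III, a difference that was not tested. Col4a1 and Col4a2, the chains of the type IV collagen found in nearly every basement membrane, are neighbours that share a promoter region (above). Col4a1 had normalized counts of 4185, 4767 and 4414 in the WT-labelled and 6082, 6677 and 6256 in the Dab2-cKO-labelled libraries (log2 fold change 0.51, SE 0.07, adjusted p = 3.88e-09). Col4a2 had 2168, 2633 and 2347 against 3686, 3634 and 3693 (log2 fold change 0.62, SE 0.07, adjusted p = 1.73e-11). The groups did not overlap in either gene, and the rises, 1.54-fold for Col4a2 and less for Col4a1, were below those of Col1a1, Col1a2 and Col3a1. With library size alone the call of Col4a1 was lost (log2 fold change 0.08, adjusted p = 0.178).

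Col4a3 and Col4a4, chains of the type IV collagen known from the kidney glomerulus, are also neighbours. Col4a3 had 169, 143 and 165 against 369, 356 and 347 (log2 fold change 1.17, SE 0.11, adjusted p = 5.17e-14). Col4a4 had 287, 239 and 296 against 394, 433 and 418 (log2 fold change 0.60, SE 0.10, adjusted p = 1.53e-06), and its call was lost with library size alone (log2 fold change 0.17, adjusted p = 0.172). Exons on the opposite strand, of C430014B12Rik and Col4a4, cover 10.1% of the merged exons of Col4a3. Col4a5 and Col4a6, whose chains form a type IV collagen of epithelial basement membranes, were not called. Col4a5 had 349.6, 409.9 and 378 against 414, 419 and 381 (log2 fold change 0.09, SE 0.10, adjusted p = 0.566), and Col4a6 245, 222 and 245 against 268, 238 and 254 (log2 fold change 0.10, SE 0.11, adjusted p = 0.618). Their groups overlapped, and with upper-quartile factors or library size alone both turned below 0. Of the 6 type IV genes 4 rose and 2 were not called, with a median log2 fold change of 0.55.

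Type VI collagen forms beaded microfilaments around cells, and its main chains rose by more than 2-fold. Col6a3 had normalized counts of 2719, 3264 and 2935 against 7862, 7776 and 7812 in the WT-labelled and the Dab2-cKO-labelled libraries (log2 fold change 1.39, SE 0.07, adjusted p = 1.27e-27). For Col6a1 they were 1406, 1737 and 1426 against 3247, 3346 and 3426 (log2 fold change 1.13, SE 0.07, adjusted p = 6.27e-22). For Col6a2 they were 1656, 2065 and 1852 against 3807, 4006 and 3982 (log2 fold change 1.08, SE 0.07, adjusted p = 3.54e-21). Every Dab2-cKO-labelled library lay above every WT-labelled library in these 3 genes. Among the alternative chains that can stand in for α3, those of Col6a5 and Col6a6 rose by less than 1.5-fold. Col6a6 had 317, 319.6 and 350.3 against 415, 404 and 405 (log2 fold change 0.31, SE 0.10, adjusted p = 0.01), and its call was lost with upper-quartile factors (adjusted p = 0.182) and with offsets for GC content and exon length (0.0588), while with library size alone its direction turned (log2 fold change -0.12). Col6a5 had 136, 174 and 149 against 195, 211 and 215 (log2 fold change 0.43, SE 0.13, adjusted p = 0.00783), and its call was lost without Dab2-cKO replicate 3 (adjusted p = 0.0514), with upper-quartile factors (0.0826) and with library size alone (0.980). Col6a4 was not called (log2 fold change -0.11, SE 0.13, adjusted p = 0.625). The class had 5 genes that rose and 1 that was not called, with a median of 0.75.

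Among the FACIT genes, 2 rose, 1 fell and 6 were not called, with a median of 0.03. Col16a1, which sits on fibrils and near basement membranes, had normalized counts of 1263, 1557 and 1421 against 3447, 3431 and 3319 (log2 fold change 1.26, SE 0.07, adjusted p = 1.25e-24). Col14a1, which binds the surface of type I fibrils, had 732, 900.1 and 855 against 1428, 1491 and 1597 (log2 fold change 0.86, SE 0.08, adjusted p = 6.41e-16). Both were higher in all Dab2-cKO-labelled libraries than in any WT-labelled library. Col12a1, a close relative of Col14a1 that also binds type I fibrils, went the other way with 1501, 1581 and 1522 against 1319.8, 1270.3 and 1212 (log2 fold change -0.28, SE 0.07, adjusted p = 0.00104), and its groups did not overlap either. Of the other 6, Col9a1, Col9a2 and Col9a3 encode type IX collagen of cartilage, and none of Col9a1, Col9a2, Col9a3, Col19a1, Col20a1 and Col22a1 passed the test.

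Col7a1 (chromosome 9, 108782647-108813943), the only anchoring fibril gene, encodes the type VII collagen that is lost in dystrophic epidermolysis bullosa and is made by keratinocytes as well as fibroblasts. Its normalized counts were 655, 702 and 631 in the WT-labelled and 1652, 1599 and 1745 in the Dab2-cKO-labelled libraries (log2 fold change 1.33, SE 0.07, adjusted p = 1.59e-25). All 3 Dab2-cKO-labelled libraries were more than 2 times as high as any WT-labelled library.

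The multiplexin genes moved in opposite directions. Col15a1, found between basement membranes and the fibrils below them, had 1216, 1347 and 1262 against 2699.7, 2834 and 2679.7 (log2 fold change 1.10, SE 0.07, adjusted p = 2.78e-22). Col18a1, whose C-terminal fragment is endostatin, had 1391, 1587 and 1449.95 against 1171, 1186 and 1115 (log2 fold change -0.35, SE 0.07, adjusted p = 3.98e-05). The groups did not overlap in either gene. Exons of Slc19a1 on the opposite strand cover 12.7% of the merged exons of Col18a1.

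Transmembrane collagens are single-pass membrane proteins with a collagenous ectodomain. Col23a1 had 206, 293 and 261 against 422, 471 and 486 (log2 fold change 0.85, SE 0.11, adjusted p = 2.69e-10). Col13a1 had 121, 98.4 and 128 against 163, 149.6 and 174 (log2 fold change 0.49, SE 0.15, adjusted p = 0.00754). In both genes every Dab2-cKO-labelled library was above every WT-labelled library, but the call of Col13a1 was lost without WT replicate 2 (adjusted p = 0.0720), without Dab2-cKO replicate 3 (0.0626), with upper-quartile factors (0.0731), with library size alone (0.781) and with the GC and length offsets (0.0504). Col25a1 was not called (log2 fold change -0.21, SE 0.14, adjusted p = 0.304).

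Of the network genes, Col8a1, a chain of the type VIII collagen of vessel walls and of the cornea, had 73.5, 88.5 and 89.7 against 119, 137 and 149 (log2 fold change 0.68, SE 0.17, adjusted p = 7.00e-04), with no overlap between the groups. With library size alone its call was lost (adjusted p = 0.227). Its partner Col8a2, the highest of the class per kb of merged exon over all libraries but not per kb of canonical transcript, had 93.5, 98.4 and 112 against 71.5, 88.6 and 75.1 (log2 fold change -0.38, SE 0.18, adjusted p = 0.12), with all Dab2-cKO-labelled libraries below all WT-labelled libraries. That difference passed the test with upper-quartile factors (adjusted p = 0.0209), library size alone (1.91e-04), a filter at an average of 50 counts (0.0265) and the GC and length offsets (0.0333). Col10a1, a marker of hypertrophic cartilage, was not called (log2 fold change -0.05, SE 0.28, adjusted p = 0.93). Col28a1, a collagen of peripheral nerve, had 124, 114 and 114 against 202, 227 and 234 (log2 fold change 0.91, SE 0.14, adjusted p = 4.38e-08), with all Dab2-cKO-labelled libraries above the others. Col26a1 was not called (log2 fold change -0.16, SE 0.18, adjusted p = 0.587).

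The 14 members that were not called had mean normalized counts from 41.5 to 391.8, log2 fold changes from -0.38 to 0.15 and SEs from 0.10 to 0.28. A missed threshold does not show that a gene did not differ, and differences within that range were called in Col11a2, Col12a1, Col18a1 and Col27a1. Of these, Col11a2 and Col27a1 lost their calls by DESeq2 and without single libraries (above). Col10a1, Col19a1, Col25a1 and Col26a1 were at or below that receptor level in both groups (14.4 per kb of merged exon in the WT-labelled and 13.1 in the Dab2-cKO-labelled libraries). Col8a1 lay below it in the WT-labelled libraries alone (10.7 per kb) and Col2a1 in the Dab2-cKO-labelled libraries alone (12.7 per kb). The other 37 members lay above it in both groups. Per kb of canonical transcript, where the receptor levels were 16.1 and 15.3, Col10a1 and Col19a1 alone were at or below them in both groups, and Col25a1 (62.1 and 53.2) and Col26a1 (35.8 and 32.2) were far above.

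Ratios of chains within a library need no scaling between libraries, and they were given no test. For chains of 1 trimer they changed little in some pairs. The log2 ratio of Col1a1 to Col1a2 was 0.66, 0.69 and 0.65 in the WT-labelled and 0.72, 0.68 and 0.72 in the Dab2-cKO-labelled libraries, with overlapping groups. Per kb the mean ratio was 3.06 and 3.14 with merged exon lengths, but 1.44 and 1.47 with the length of the canonical transcript. The log2 ratio of Col4a1 to Col4a2 had means of 0.91 and 0.79, that of Col4a5 to Col4a6 0.67 and 0.68 and that of Col6a1 to Col6a2 -0.29 and -0.24, and the groups overlapped in all 3 pairs. In other pairs the groups did not overlap. The log2 ratio of Col4a3 to Col4a4 was -0.76, -0.75 and -0.84 against -0.09, -0.28 and -0.27. The ratio of Col6a3 to Col6a1 went from a mean of 0.97 to 1.23, and that of Col5a1 to Col5a2 from 0.54 to 0.37.

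A further 2 pairs were chosen after their values were seen. The log2 ratio of Col3a1 to Col1a1 was -0.44, -0.47 and -0.45 in the WT-labelled libraries and -0.05, -0.01 and -0.04 in the Dab2-cKO-labelled libraries. The log2 ratio of Col15a1 to Col18a1 was -0.19, -0.24 and -0.20 against 1.21, 1.26 and 1.27. In both pairs the libraries of a group lay within 0.1 of each other and the groups lay apart.

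**Figure D3:**
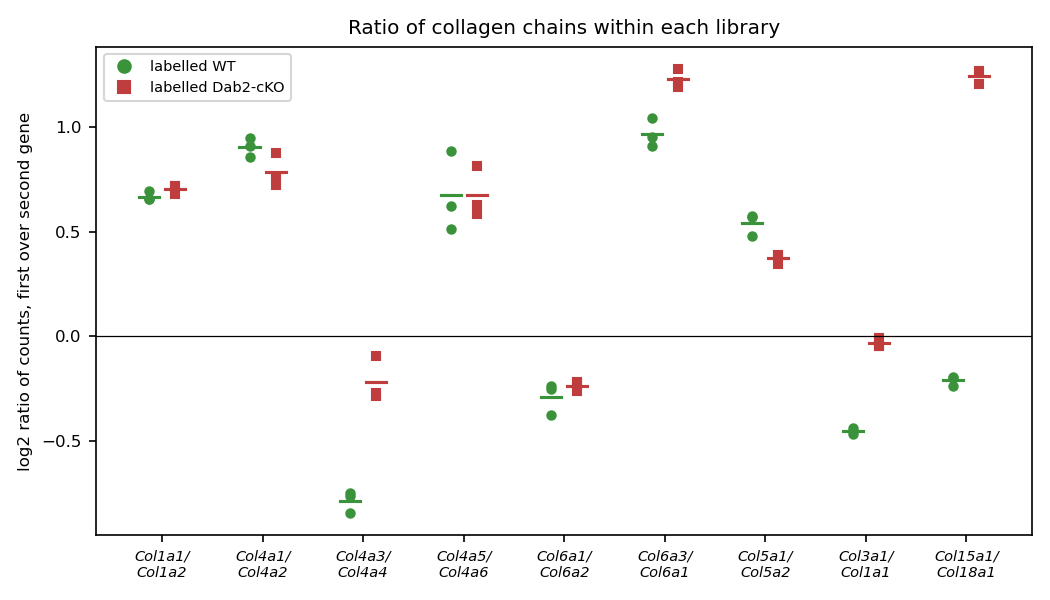
log2 ratio of the counts of 2 collagen chains in each library (circles, labelled WT; squares, labelled Dab2-cKO; short lines, means of 3 libraries). The ratio of Col1a1 to Col1a2 lies between 0.65 and 0.72 in all 6 libraries, whereas that of Col15a1 to Col18a1 moves from a mean of -0.21 to 1.24.

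The genes that build collagen rose with it in most steps. Beside the counts of this and the following lists stand 16.8% higher and 11.5% lower among all genes tested. Among genes averaging 100 or more normalized counts the shares were 37.6% and 22.8%. Of 15 hydroxylation and glycosylation genes 13 rose, 1 fell and 1 was not called, with a median log2 fold change of 0.68. P4hb, the β subunit of prolyl 4-hydroxylase, went from 2056 ± 183 to 2524 ± 92.4 normalized counts (mean ± SD, n = 3 each, log2 fold change 0.30, SE 0.07, adjusted p = 5.58e-04). With library size alone P4hb was called lower (log2 fold change -0.13, adjusted p = 0.0434). Crtap, of the prolyl 3-hydroxylation complex, had a log2 fold change of 0.68 ± 0.11 (SE, adjusted p = 6.84e-07), and Ppib, its cyclophilin partner, was not called (log2 fold change 0.19, SE 0.09, adjusted p = 0.11). P3h2, a prolyl 3-hydroxylase, had the largest called rise (log2 fold change 1.48, SE 0.13, adjusted p = 1.82e-15). Plod2, the lysyl hydroxylase of telopeptides, was the 1 that fell, from 161 ± 2.53 to 106 ± 13.5 (log2 fold change -0.60, SE 0.15, adjusted p = 9.15e-04).

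All 8 folding and secretion genes rose, with a median of 0.85. Sparc, a collagen-binding matrix protein, went from 11052 ± 977 to 34520.0 ± 164 (log2 fold change 1.64, SE 0.07, adjusted p = 3.91e-32), and Serpinh1, the collagen chaperone HSP47, from 1258 ± 85.1 to 2509 ± 50.4 (log2 fold change 1.00, SE 0.07, adjusted p = 4.64e-20). Creb3l1, a transcription factor of collagen secretion, had a log2 fold change of 1.12 ± 0.10 (SE, adjusted p = 3.36e-16). Of 14 processing and crosslinking genes 10 rose, 1 fell (Adamts3, log2 fold change -0.68, SE 0.19, adjusted p = 0.00289, named after its value was seen) and 3 were not called, with a median of 0.74. The groups overlapped for Adamts3. Its levels of 11.1 and 6.92 per kb of merged exon lay below the receptor levels of 14.4 and 13.1. Adamts2, the procollagen N-proteinase, rose from 674 ± 30.3 to 4330.1 ± 115 (log2 fold change 2.68, SE 0.07, adjusted p = 1.41e-42), more than any collagen chain. Pcolce, the enhancer of the C-proteinase, had a log2 fold change of 1.31 ± 0.09 (SE, adjusted p = 3.46e-20), and Loxl2, a lysyl oxidase, one of 1.30 (adjusted p = 6.68e-22).

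Of 11 collagen receptors 3 were higher, 2 lower and 6 not called (median 0.08), shares that lie between those of all genes tested and those of genes averaging 100 or more normalized counts. Itgb1, the β1 integrin subunit, rose from 1624 ± 33.1 to 2886 ± 77.9 (log2 fold change 0.83, SE 0.07, adjusted p = 7.61e-17), Ddr2, the collagen receptor tyrosine kinase of mesenchymal cells, had a log2 fold change of 1.03 ± 0.07 (SE, adjusted p = 4.37e-20), and Mrc2, an endocytic collagen receptor, one of 1.11 (adjusted p = 3.37e-16). Ddr1, the epithelial relative of Ddr2, fell (log2 fold change -0.36, SE 0.09, adjusted p = 4.92e-04), and so did Adgrg1, which binds type III collagen (log2 fold change -0.86, SE 0.08, adjusted p = 3.48e-15). Of 11 other basement membrane genes 6 rose, 2 fell and 3 were not called (median 0.80). Hspg2, which encodes perlecan, had a log2 fold change of 0.80 ± 0.07 (SE, adjusted p = 1.11e-15), Lamc1, the laminin γ1 chain, one of 0.87 (adjusted p = 2.92e-17) and Nid1, nidogen-1, one of 1.02 (adjusted p = 3.61e-20). The laminin α chains were split. Lama4, the chain of vessels and mesenchyme, rose from 472 ± 12.7 to 1324 ± 49.8 (log2 fold change 1.49, SE 0.08, adjusted p = 2.84e-27), while Lama5, the chain of epithelial basement membranes, fell from 1256 ± 106 to 681 ± 32.3 (log2 fold change -0.88, SE 0.08, adjusted p = 3.00e-16).

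Marker lists of other cell types moved in both directions. In a bulk sample, fewer cells of a type and less RNA per cell cannot be told apart. All 14 dermal fibroblast markers were higher in the Dab2-cKO-labelled libraries, with a median log2 fold change of 1.59, and their summed normalized counts ran from 9916 to 11536 in the WT-labelled and from 36242 to 36770.3 in the Dab2-cKO-labelled libraries. The highest per kb were Vim (log2 fold change 1.82, SE 0.07, adjusted p = 4.21e-33) and Fbn1 (log2 fold change 1.94, SE 0.07, adjusted p = 2.51e-35). All 9 endothelial markers were higher (median 1.68), with sums of 1842 to 2050.2 and 6316 to 6494. Of 8 pericyte and smooth muscle markers 6 were higher and 1 lower (median 1.09), with sums of 4545 to 5298 and 15416 to 15581. All 7 skeletal muscle markers (median 2.48), all 6 adipocyte markers (median 1.47), 8 of 9 immune markers (median 1.92) and 4 of 7 Schwann cell markers (median 1.13, 1 lower) were higher as well, as were 6 of 7 genes of differentiated epidermis (median 1.65, 1 lower). Of 7 housekeeping genes 2 were higher and 5 not called (median 0.02). The 2 higher genes, named after their values were seen, were Gapdh (log2 fold change 1.57) and Rplp0 (1.25). Of 10 dermal papilla and sheath markers 2 were higher and 5 lower (median -0.35), with sums of 1271 to 1334 and 908 to 1026. All 7 melanocyte markers (median -1.99), all 8 proliferation genes (median -1.32) and all 12 hair germ and matrix genes (median -4.22) were lower. Lox is both a fibroblast marker and a crosslinking gene here. The part of these other cell types in the collagen differences was not tested either.

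Within each library, Col1a1, Col1a2 and Col3a1 were set against the fibroblast, the endothelial and the pericyte and smooth muscle markers alone. Against these sets their summed counts changed little, but the single chains did not move alike. Ratios to other marker sets were not computed. The summed normalized counts of the 3 genes rose 3.24-fold, those of skeletal muscle markers 4.40-fold, of immune markers 4.45-fold and of adipocyte markers 2.80-fold. Together the 3 genes had 9.89, 10.3 and 10.3 times the counts of the 14 fibroblast markers in the WT-labelled libraries and 9.46, 9.99 and 9.55 times in the Dab2-cKO-labelled libraries. Taken alone, Col1a1 had 4.17, 4.41 and 4.35 times those counts against 3.67, 3.82 and 3.71 times, and Col1a2 2.65, 2.73 and 2.76 against 2.24, 2.38 and 2.25. Col3a1 went the other way, with 3.08, 3.19 and 3.18 against 3.55, 3.80 and 3.59. For the sum of the 3 genes the groups overlapped, while for each single gene they lay apart, Col1a1 and Col1a2 lower and Col3a1 higher in the Dab2-cKO-labelled libraries. The endothelial markers gave the same split, and so did the pericyte and smooth muscle markers with Des in their sum. Against the endothelial markers the sum of the 3 genes had mean ratios of 55.0 ± 2.70 and 54.8 ± 1.67, and against the pericyte and smooth muscle markers 22.0 ± 0.450 and 22.8 ± 0.675 (SD, n = 3 each), with overlapping groups in both. Des weighs heavily in the pericyte and smooth muscle sum, with mean normalized counts of 1569 and 8713 within sums of 4931 and 15475. Its log2 fold change of 2.47 was the largest of that list. The median of that list was 1.09, below the 1.56 of Col1a1 and the 1.52 of Col1a2. Ratios without Des, here and for type IV below, were not computed. The small change and the split against this list therefore cannot be read apart from Des.

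The ratios of type IV were lower by more than those of type I. Col4a1 and Col4a2 together had 0.641, 0.641 and 0.638 times the counts of the fibroblast markers in the WT-labelled libraries and 0.270, 0.284 and 0.271 times in the Dab2-cKO-labelled libraries. Against the endothelial markers the mean ratio was 3.46 ± 0.142 and 1.56 ± 0.0445, and against the pericyte and smooth muscle markers 1.39 ± 0.0184 and 0.647 ± 0.0192. The groups lay apart in each of these ratios, for the sum and for Col4a1 and Col4a2 alone. No test was made of any ratio to markers.

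**Figure D4:**
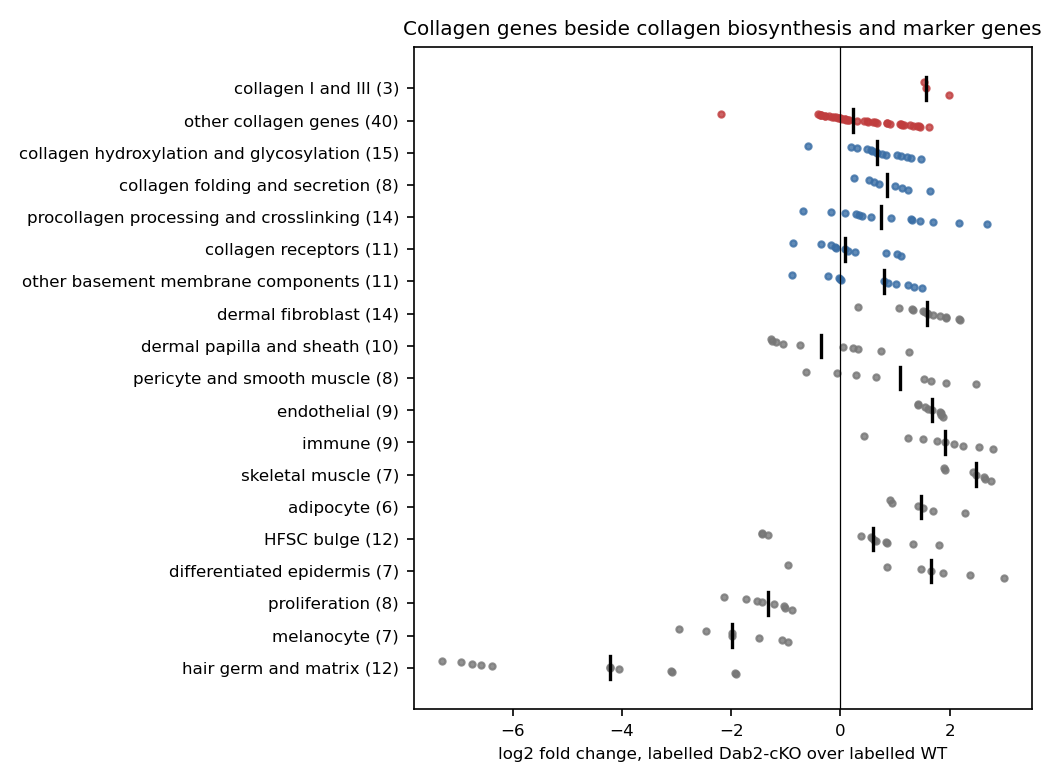
log2 fold change, labelled Dab2-cKO over labelled WT, of the collagen genes (red), the collagen biosynthesis, receptor and basement membrane genes (blue) and marker genes of cell types and states (grey), with 1 point per gene, the number of genes in brackets and the median as a black line. Col1a1, Col1a2 and Col3a1 lie between 1.52 and 1.98, within the range of the fibroblast markers (median 1.59), and their median lies below that of the skeletal muscle markers (2.48), and the other 40 collagen genes spread from -2.18 to 1.61.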

How the data were processed

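Total RNA (5 ng per library) of sorted HFSCs was sequenced after preparation with a stranded kit for total RNA. The authors trimmed reads with fastp 0.23.4, aligned them to GRCm39 with HISAT2 2.2.1 and counted them per gene with featureCounts 2.0.6. The deposited counts are whole reads per gene without normalization. Strand setting, treatment of multimapping reads and annotation release are not given in the sources used here. A deposited table of the authors' own DESeq2 comparison (normalized values, fold changes and p-values) was not used. Count columns named FL-FL were taken as Dab2-cKO, since the series title equates them, and every direction depends on this.

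Counts were filtered by expression, normalized by TMM and compared by edgeR 4.0.16 (R 4.3.3) with robust quasi-likelihood tests of 3 against 3 libraries, without covariates, and Benjamini-Hochberg adjustment. The script was tested on simulated data. The total per library was 7040032 to 11696457 counts, and molecular identifiers were not considered. Lengths and overlaps came from GENCODE on GRCm39 for 56323 of 56941 genes. In 27 members, exons overlap exons of the opposite strand, in 5 of them over more than 10% of bases. Members and lists were chosen with earlier results of these data known. Per-library values are given for the 20 highest members per kb, for other called members averaging 100 or more normalized counts and for the highest of each class. From each biosynthesis list the 3 highest genes per kb and the largest called rise and fall were named. The alternatives were DESeq2 1.42.0, upper-quartile and library-size scaling, TMM without mitochondrial and the 100 most abundant genes, no filter, a filter at an average of 50 counts, a block for the replicate number, leaving out each library and a test against a 1.5-fold change. Offsets for GC content and exon length were added after seeing the data. The sources used here do not say whether replicate numbers mark a shared litter or day.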

Additional observations from a re-analysis of the deposited data

How the results depend on the processing

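Of the 29 called members, 20 kept their call and direction under every alternative other than the test against a 1.5-fold change. The count of members called higher stayed between 16 and 23 over all alternatives and between 21 and 23 when single libraries were left out. The count called lower, 6 in the test reported, was 3 by DESeq2, 15 with library size alone, 1 in the test against a 1.5-fold change and 3 to 5 when single libraries were left out, with 3 without WT replicate 1 or WT replicate 3. The lower count falls with the threshold fold by construction, and otherwise the cause was not tested. The median log2 fold change of the members was 0.36 to 0.46 when single libraries were left out, 0.29 with upper-quartile factors and 0.0047 with library size alone. Those scalings moved the median of all genes tested to -0.17 and -0.45, and the genes called higher and lower from 5387 and 3682 to 4281 and 5561 and to 2686 and 11168. In the test against a 1.5-fold change, 2222 and 1136 of all genes were called.

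Same-numbered libraries had correlations of their deviations of 0.0231, 0.0117 and 0.0076, and differently numbered libraries had -0.0177 to 0.0055. With 3 libraries per group, values this small cannot tell whether the replicate numbers pair the libraries. With the replicate block 23 members were higher and 6 lower (median 0.44), with all 43 calls as without the block.

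With library size alone the direction turned for Col4a5 (-0.33), Col4a6 (-0.33), Col6a6 (-0.12), Col9a1 (-0.40), Col9a2 (-0.28), Col19a1 (-0.35), Col24a1 (-0.29), Actb (-0.31), Itga8 (-0.11), P4hb (-0.13) and Ppib (-0.23). With upper-quartile factors it turned for Col4a5 (-0.050), Col4a6 (-0.047), Col9a1 (-0.12), Col19a1 (-0.067) and Actb (-0.022). Of these only Col6a6 and P4hb had been called. With library size alone, P4hb (adjusted p = 0.0434), Ppib (0.0209), Actb (8.29e-09), Col4a5 (0.00146) and Col4a6 (0.0119) passed the test as lower. Among members not called, Col9a1 also turned without a filter (-0.0065), with a filter at an average of 50 counts (-0.061) and with GC and length offsets (-0.039), and Col19a1 with that filter at 50 (-0.011). Leaving out single libraries gave values on both sides of 0 for Col9a1 (-0.12 to 0.11), Col9a3 (-0.22 to 0.072), Col10a1 (-0.33 to 0.24), Col20a1 (-0.095 to 0.12) and Col22a1 (-0.091 to 0.14), none of them called. The filter at 50 left out Col10a1.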
